A study of Allium sativum with 84 samples.

Results

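Asa2G00245.1, a garlic gene that the study calls TB1-like, was followed as 1 of the 57561 genes in the table of transcript abundance. It was chosen by its identifier, with earlier results of these data known. RNA from enlarging bulbs of 84 accessions of Allium sativum had been sequenced, with 1 library per accession, and abundance was given in FPKM, a read density that corrects for gene length and for library size. Per the labels a single farm in Shandong had grown every accession, sown in autumn and sampled in spring, and no treatment is given. The labels set the accessions apart only by the country or site of collection. They also give the same source name, Chalingzipisuan, for all libraries, which the study describes as a variety planted at another farm, and the study counts fewer accessions, so the single farm rests on the growth protocol of the labels. The accessions came from 32 labelled sites, with 15 accessions from Shandong, 9 from Xinjiang, 6 from Shanxi, 5 from Canada and 4 each from Hebei and Henan, and 6 from China without a province. In total 68 came from China and 16 from other countries, and the spellings of sites (Yunan, Eygpt, Amrica) are those of the labels. An accession labelled Xiangjiang (1.01 FPKM of the gene) was kept apart from Xinjiang, since the labels do not say whether they are the same place. Replicates of a site are different accessions, each with pooled bulbs, so the spread within a site includes genetic differences. The identity of the tissue could not be checked against marker genes, because the table did not pair identifiers with names.

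TB1 (teosinte branched 1) of maize and its relatives OsTB1 in rice and BRC1 in Arabidopsis are transcription factors of the TCP family that hold back the outgrowth of axillary buds. Signals from auxin, other hormones and light meet at these genes, and a bud in which they are low tends to grow out. A garlic clove is an enlarged axillary bud, which is why the study considered a TB1-like gene beside clove number. Among the TB1 homologs it singled out Asa2G00245.1 by a signal of selection and by variants of the gene. It also compared the expression of the gene among its genetic groups, which were not used here. A correlation of that expression with clove number is reported there too. For accessions with a promoter variant it reports low expression together with fewer cloves. That is not the direction described above for TB1, and clove number was not examined here. In bulk bulbs, fewer cells that express the gene and less RNA per cell cannot be told apart.

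Asa2G00245.1 was weakly expressed and varied widely among accessions. Its mean was 1.79 ± 1.3 FPKM (SD, n = 84) and its median 1.55 FPKM, and the middle 50% of accessions lay between 0.778 and 2.57 FPKM. This mean stood at percentile 26.5 of the 36007 genes that reached 1 FPKM in at least 4 accessions. Within single libraries its place among the genes above 0 ran from the bottom to percentile 51.0, with a median percentile of 26.4. The gene was thus a weak transcript in most bulbs and an abundant one in none of these libraries.

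The values formed a continuous range and not separate classes. There were 25 accessions under 1 FPKM, 29 from 1 to 2 FPKM, 15 from 2 to 3 FPKM and 15 at 3 FPKM or more. Below 4 FPKM no gap between neighbouring accessions was over 0.299 FPKM, and the widest gap of all, 1.20 FPKM, separated the highest accession from the next. The coefficient of variation was 72.5%, at percentile 49.8 of the same genes, and the SD on the log2(FPKM + 1) scale was 0.67, at percentile 52.8. The Shannon-Wiener index (H'), which counts how evenly the accessions fill 10 intervals of 0.5 SD around the mean, was 2.78, above that of 78.5% of the 47415 genes listed above 0 in any accession. The gene therefore varied about as much as a typical gene that reached 1 FPKM in at least 4 accessions. Its H' was above that of most of the 47415 genes, a larger set that also holds genes too low for the first.

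Whole reads could be recovered from the steps of the low FPKM values, and all 84 values of Asa2G00245.1 were whole within 0.05 of a read. Between 0 and 204 reads stood behind a value, with a median of 54 and a total of 5175. Fewer than 10 reads were counted in 7 accessions and more than 100 in 18. The variance among accessions was 32.1 times the variance that counting alone would give at these depths. Counting intervals cover counting error only, and say nothing of how another bulb of the same accession would read.

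**Figure D1:**
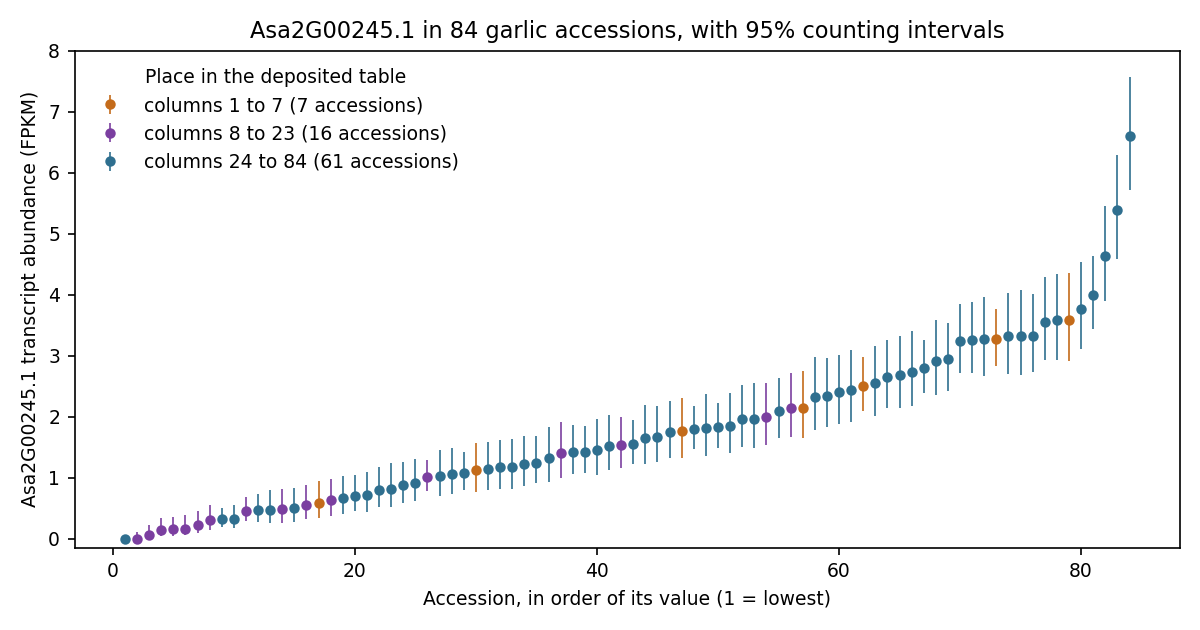
Asa2G00245.1 in FPKM (vertical axis) in each of the 84 accessions in order of its value (horizontal axis), with exact 95% Poisson intervals of its reads as bars and the place of the accession in the deposited table as colour. The points climb without a break from 0 to 4.0 FPKM, 3 accessions stand above that, and 9 of the 15 accessions under 0.5 FPKM come from columns 8 to 23.

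At the low end Asa2G00245.1 was listed at 0 in 2 accessions, Xinjiang replicate 2 and Guizhou replicate 3. A count of 0 was taken to allow up to 3 reads, which is 0.0951 FPKM in the Xinjiang library and 0.0548 FPKM in the Guizhou library. The two-sided 95% Poisson limits were higher, at 0.117 and 0.0674 FPKM. The Guizhou library was among the deepest, at 0.919 of the reads of the reference library, in a range of 0.449 to 1.03. The lowest values above 0 were 0.0630 FPKM in Ukraine (2 reads), 0.134 FPKM in Shanxi replicate 3 (4 reads) and 0.155 FPKM in Guizhou replicate 1 (5 reads). Canada replicate 3 had 0.165 FPKM and Japan 0.220 FPKM. These low accessions came from different countries and provinces, and every site with at least 2 accessions also held an accession above 1 FPKM.

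At the high end stood Xinjiang replicate 4 with 6.59 FPKM, from 204 reads (95% Poisson interval 5.72 to 7.56 FPKM). Hunan followed with 5.39 FPKM, Hebei replicate 3 with 4.63 FPKM, Jilin replicate 2 with 4.0 FPKM and Shandong replicate 12 with 3.77 FPKM. The highest accession was 105-fold above the lowest accession with reads, with an exact 95% counting interval of 28.6 to 870.4. Against the accessions at 0, each taken at 3 reads in that library, it was 69.4-fold above Xinjiang replicate 2 and 120.2-fold above Guizhou replicate 3. These 2 ratios take the highest value as exact and leave out its counting interval. Hence an accession listed at 0 and the highest accession both carried the label Xinjiang.

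The first comparison asked whether the gene differed between accessions from China and from other countries. In China the 68 accessions ran from 0 to 6.59 FPKM with a median of 1.61 FPKM, and in other countries the 16 ran from 0.0630 to 3.56 FPKM with a median of 1.49 FPKM. The groups overlapped over the whole range of the other countries, and the means were 1.82 ± 1.32 and 1.63 ± 1.22 FPKM (SD). On the log2 scale other countries minus China came to -0.11 ± 0.19 (SE; limma adjusted p = 0.805), against 3.67% of 36007 genes called at an adjusted p under 0.05. A permutation test of the same difference gave p = 0.547 (two-sided; 0.982 adjusted over 7 comparisons), and its 95% interval from the pooled spread was -0.49 to 0.26. The country label accounted for 0.451% of the variance of the gene on the log2 scale. In the same fit 12 of the 13 other genes that the study names for bulb traits could be tested and 1 was called, the DELLA gene Asa2G00237.1, which was higher in other countries (limma adjusted p = 0.00415), and none of the 4 others for bud outgrowth and auxin was called.

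The 6 sites with at least 4 accessions were then fitted together, to ask whether the gene differed by site of collection. Xinjiang had the highest mean of them, 2.27 ± 1.91 FPKM (SD, n = 9), from 0 through a median of 1.85 to 6.59 FPKM. In Shanxi the values were 0.134, 0.626, 1.33, 1.96, 3.24 and 3.33 FPKM, with a mean of 1.77 ± 1.33 FPKM (SD, n = 6). Both sites thus held low and high accessions.

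In Hebei the accessions read 0.499, 0.549, 1.42 and 4.63 FPKM (1.78 ± 1.95, SD, n = 4). Shandong, where all plants were grown, ran from 0.299 through a median of 1.22 to 3.77 FPKM (1.68 ± 1.08, SD, n = 15). Canada read 0.165, 0.485, 1.83, 2.14 and 3.28 FPKM (1.58 ± 1.27, SD, n = 5), with 2 low accessions apart from 3 that lay above the median of Shandong. Henan had the narrowest range, with 0.665, 1.02, 1.74 and 2.44 FPKM (1.47 ± 0.790, SD, n = 4), and all of it lay within the range of Shandong.

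The differences among sites did not exceed the spread within sites. The limma F statistic over the 6 sites was 0.146 (adjusted p = 0.9998, against 0.0442% of 33913 genes called), and site accounted for 1.92% of the variance of the gene among these 43 accessions. In the order of the site means, from Xinjiang through Hebei, Shanxi, Shandong and Canada to Henan, each mean lay within 1 SD of the next. Xinjiang minus Shandong was 0.17 ± 0.30 on the log2 scale (SE; limma adjusted p = 0.875, with 0% of genes called and 3724 at an unadjusted p under 0.05). Exact permutation gave p = 0.556 for it, and without Xinjiang replicate 4, the highest accession of all, the difference fell to -0.01. Canada minus Shandong was -0.11 ± 0.37 (SE; limma adjusted p = 0.910, against 1.35% of genes called), with an exact permutation p = 0.727. In that contrast the median change of all genes was -0.17 and became -0.02 after the libraries were rescaled by median ratios, and the change of Asa2G00245.1 was then 0.03. Shanxi, Henan and Hebei differed from Shandong by -0.01, -0.07 and -0.07, each with a limma adjusted p of 1.0 and 0% of genes called, where at most 834 genes had an unadjusted p under 0.05. Among the 95% intervals of these 5 differences, from the pooled spread of both sites, that of Hebei reached lowest (-0.81 to 0.67). That of Xinjiang reached highest (-0.42 to 0.77). With 4 to 9 accessions per site, changes within the interval of each contrast were not excluded for that contrast. Among the 13 other study-named genes, none was called in any of the 5 contrasts.

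**Figure D2:**
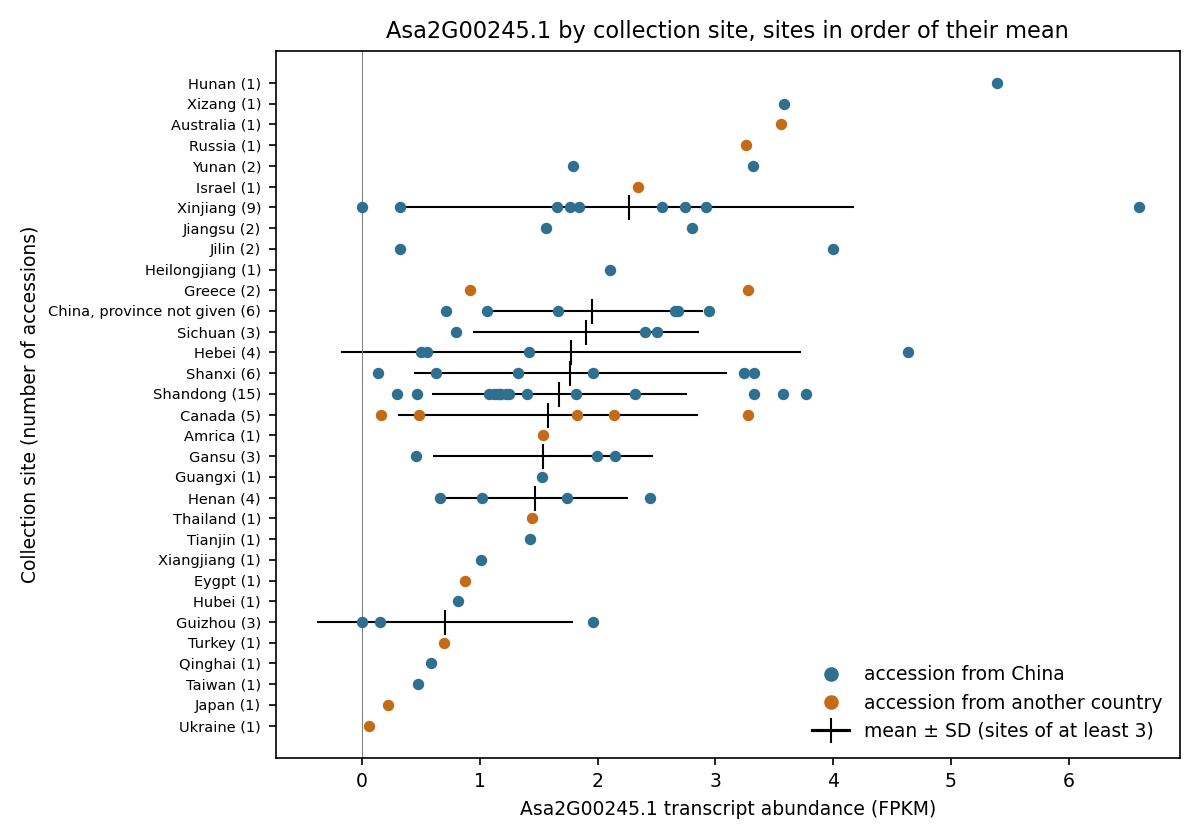
Asa2G00245.1 in FPKM (horizontal axis) for each accession (points; blue from China, orange from other countries), by collection site in order of the site mean (vertical axis), with mean and SD drawn for sites of at least 3 accessions. The values of Xinjiang, from 0 to 6.59 FPKM, cover those of every other site.

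Accessions from southern provinces (Guangxi, Yunan, Hunan, Sichuan, Hubei, Guizhou and Taiwan, 12 in all) were set beside 24 from the North China Plain (Shandong, Hebei, Henan and Tianjin). The southern accessions held both extremes of this comparison, from 0 in Guizhou replicate 3 to 5.39 FPKM in Hunan, with a median of 1.66 FPKM. Those of the plain ran from 0.299 to 4.63 FPKM with a median of 1.24 FPKM. The means were 1.76 ± 1.53 and 1.65 ± 1.14 FPKM (SD), and South minus plain was -0.02 ± 0.23 on the log2 scale (SE; limma adjusted p = 0.978, with 0% of 33360 genes called and 4490 at an unadjusted p under 0.05). A permutation test gave p = 0.921, with a 95% interval of the difference of -0.49 to 0.44.

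Among the small sites some pairs were far apart. The accessions of Jilin had 0.325 and 4.0 FPKM, those of Greece 0.920 and 3.27 FPKM, and those of Guizhou 0, 0.155 and 1.96 FPKM. Those of Yunan (1.79 and 3.32 FPKM) and Jiangsu (1.56 and 2.80 FPKM) were closer. Of the sites with a single accession, Russia (3.26 FPKM), Australia (3.56 FPKM), Xizang (3.58 FPKM) and Hunan were above 3 FPKM, and Ukraine, Japan, Taiwan (0.475 FPKM), Qinghai (0.583 FPKM), Turkey (0.697 FPKM), Hubei (0.818 FPKM) and Eygpt (0.874 FPKM) were under 1 FPKM. With 1 accession each these sites could not be compared.

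The level of Asa2G00245.1 also varied with the place of an accession in the table. The columns were divided into 3 blocks, columns 1 to 7, 8 to 23 and 24 to 84, with limits set from the expression of these libraries. The labels do not say what the column order stands for. In the second block the 16 accessions ran from 0 through a median of 0.472 to 2.14 FPKM (0.703 ± 0.701, SD), and 11 of them were under 1 FPKM. The 7 accessions of the first block ran from 0.583 to 3.58 FPKM (2.14 ± 1.09, SD) and the 61 of the third from 0 to 6.59 FPKM (2.03 ± 1.3, SD), of which 13 were under 1 FPKM. The second block was low and the other blocks were alike, although all 3 overlapped. The block accounted for 23.4% of the variance of the gene on the log2 scale, which is a description with no test because the limits came from the expression of these libraries. Over the 32 labelled sites, 18 of which hold a single accession, the share was 31.2%, and shares over different numbers of groups cannot be ranked.

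**Figure D3:**
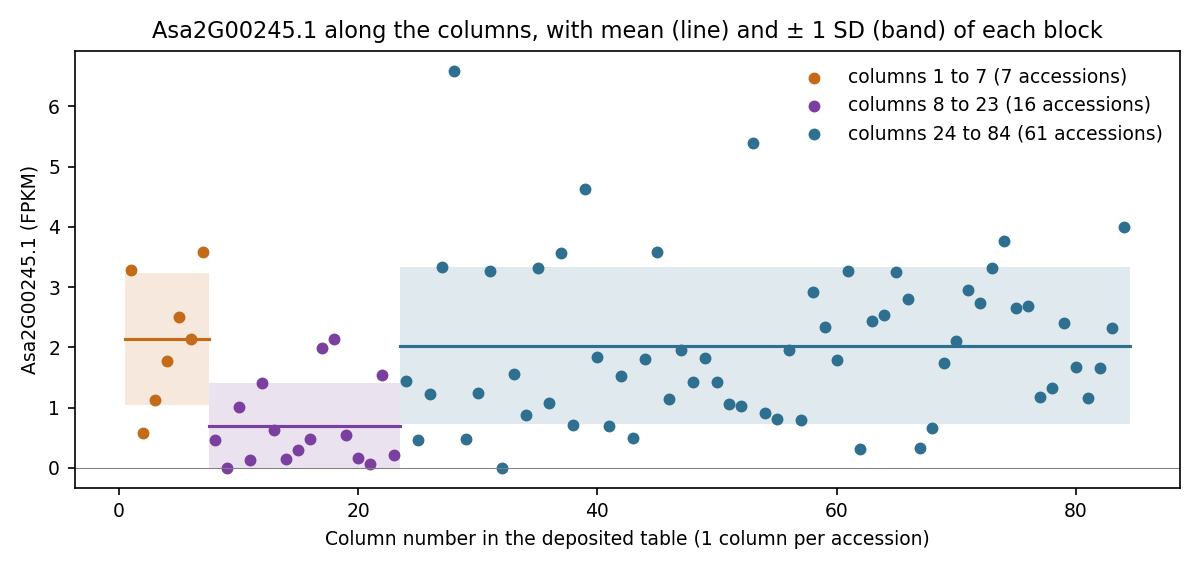
Asa2G00245.1 in FPKM (vertical axis) against the column of each accession in the deposited table (horizontal axis), with the mean (line) and 1 SD to each side (band) of the 3 blocks. The block of columns 8 to 23 lies lowest, with a mean of 0.703 FPKM against 2.14 and 2.03 FPKM.

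Within blocks the means of China and of other countries were close, whereas single sites were further apart. In the third block other countries had 2.02 ± 1.13 FPKM (SD, n = 9) and China 2.03 ± 1.34 FPKM (SD, n = 52), and in the first 2 blocks together they had 1.13 ± 1.23 (n = 7) and 1.15 ± 1.01 FPKM (n = 16). In the limma fit of the third block alone, other countries minus China was 0.03 ± 0.22 (SE, adjusted p = 0.955) and South minus plain -0.06 ± 0.24 (SE, adjusted p = 0.906). Xinjiang and Shanxi minus Shandong were 0.29 ± 0.29 and 0.32 ± 0.36 there (SE, limma adjusted p = 0.742 and 1.0). The site means there ran from 1.47 FPKM in Henan (n = 4) to 2.66 FPKM in Xinjiang (n = 7), with 2.46 FPKM in Shanxi (n = 4). In the first 2 blocks they were 0.380 FPKM in Shanxi (n = 2), 0.884 FPKM in Xinjiang (n = 2), 0.941 FPKM in Shandong (n = 3) and 1.52 FPKM in Canada (n = 4). Of the Canada accessions only 1 was in the third block, too few to compare. What the part of the block is in the low values was not tested.

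No relation with depth passed the test. Over the 84 accessions Pearson's r with relative depth was -0.04 (permutation p = 0.685) and Spearman's rho -0.07 (p = 0.538), and r was -0.08 without the 2 accessions farthest from the median depth. Within the third block r was -0.20 (n = 61), and within the first 2 blocks 0.28 (n = 23).

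Over the 84 accessions the gene did not follow the main axes of expression. In a principal component analysis of the 36007 genes the first component held 27.2% of the variance, and r of Asa2G00245.1 with it was -0.16 (rho -0.17, permutation p = 0.136 and 0.113). For the second (13.4%) and the third component (9.58%) r was 0.00 and -0.06 (permutation p = 0.990 and 0.560). Within the third block r with the first component was 0.03 (n = 61) and within the first 2 blocks -0.40 (n = 23), a difference that was not tested. The sign of a component is arbitrary, and the sizes over all 84 accessions show that little of the variation of the gene lay on these 3 axes.

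Later components did carry part of it. With component 4 (7.58% of the variance) r was -0.37 and rho -0.39, with component 5 (5.52%) 0.27 and 0.35, and with component 6 (4.48%) -0.38 and -0.43 (permutation adjusted p of r = 0.00192, 0.0288 and 0.00192 over 7 relations that include depth; of rho 0.000980, 0.00287 and 0.000280). Without the 2 farthest accessions r was -0.40, 0.27 and -0.39. The blocks held 65.4% and 61.5% of the variance of components 4 and 5, and 7.28% of component 6. Of the first 3 components they held 9.63%, 0.175% and 1.44%. Within the third block the 3 values of r were -0.32, 0.27 and -0.57 (n = 61), and within the first 2 blocks 0.00, 0.45 and -0.01 (n = 23). The relation with component 6 was thus near 0 in the first 2 blocks, and the difference between blocks was not tested.

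Other genes that the study names were compared with Asa2G00245.1 next. The accessions were split at 0 on the first component, 41 above and 43 below, and each relation was computed on each side. Any component has accessions on both sides of 0, so the split does not mark separate groups. The p-values were adjusted over the 52 values of r and rho. Asa2G00245.1 itself had 1.68 ± 1.48 FPKM above 0 and 1.89 ± 1.1 FPKM below 0 (SD), and both accessions listed at 0 were above. Of the 52 values 4 passed, and they belonged to 2 genes. For both of them and for Asa2G00245.1 the study reports a correlation of expression with clove number in its sequenced bulbs. The list was thus partly built on a trait shared in such data, and these p-values are not independent of that choice.

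The first was AXR1-like Asa2G00503.1, which ran opposite to Asa2G00245.1. AXR1 of Arabidopsis is a subunit of the enzyme that activates the ubiquitin-like protein RUB1, a step that auxin signalling needs. The garlic gene was steadily expressed, at 43.2 ± 11.9 FPKM (SD, n = 84) and from 28.4 to 89.6 FPKM. Over all 84 accessions its rho with Asa2G00245.1 was -0.37, which was not tested. Above 0 on the first component r with Asa2G00245.1 was -0.55 and rho -0.51 (permutation adjusted p = 0.00676 and 0.0143, n = 41), and r was -0.49 without the 2 accessions farthest from the median. Within the third block r was -0.60 and rho -0.53 (permutation adjusted p = 0.0345 and 0.0873, n = 24), and within the first 2 blocks r was -0.29 (n = 17). With untransformed FPKM r was -0.47 (permutation adjusted p = 0.0567) and no longer passed, whereas rho did (adjusted p = 0.0286). Below 0 r was -0.18 and rho -0.21 (permutation adjusted p = 0.479 and 0.393, n = 43), and the difference between the sides was not tested. The study prints a second identifier for its AXR1-like gene, Asa2G00253.1, in a figure caption, whereas its expression results name Asa2G00503.1. For the second identifier r was 0.30 above 0 and 0.27 below 0 (permutation adjusted p = 0.230 and 0.279), of the other sign. It lies 8 identifiers after Asa2G00245.1, with a rho of 0.31 over the 84 accessions.

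The second was the TOPLESS-related gene Asa4G00255.1. Proteins of the TOPLESS family are co-repressors that transcription factors recruit, among them the repressors of auxin response. Its level was 6.69 ± 4.56 FPKM (SD, n = 84), from 0.586 to 29.3 FPKM. Over all 84 accessions its rho with Asa2G00245.1 was 0.30, which was not tested. Below 0 it went with Asa2G00245.1, with r = 0.49 and rho = 0.49 (permutation adjusted p = 0.0143 for both, n = 43), and r was 0.57 without the 2 farthest accessions, 0.54 within the third block (n = 37) and 0.43 within the first 2 blocks (n = 6). With untransformed FPKM r was 0.35 (permutation adjusted p = 0.148) and no longer passed, whereas rho did (adjusted p = 0.0286). Above 0 r was 0.10 and rho 0.15 (permutation adjusted p = 0.83 and 0.606, n = 41), and the difference between the sides was not tested.

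**Figure D4:**
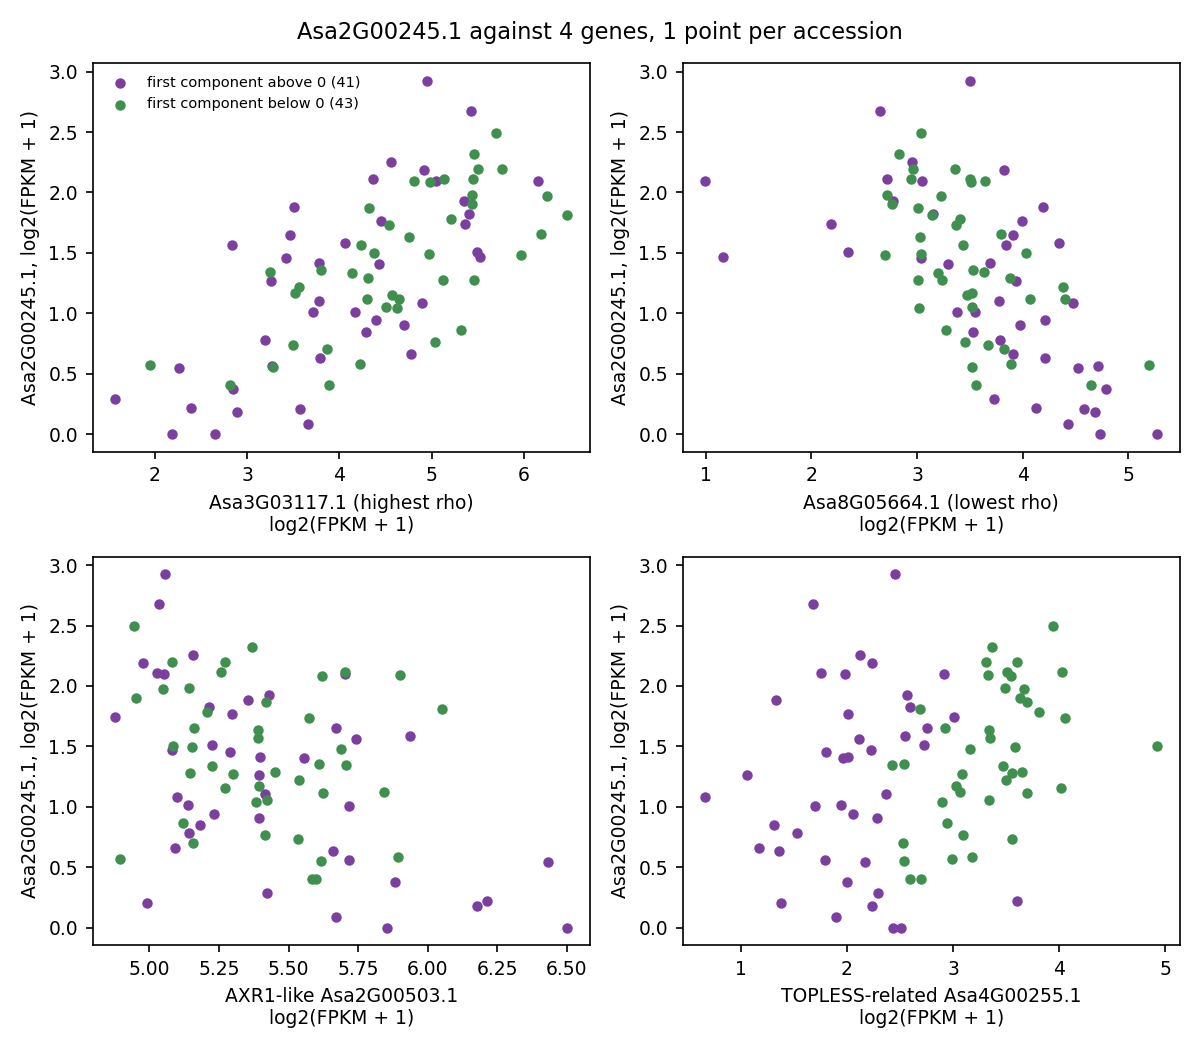
Asa2G00245.1 (vertical axes) against 4 genes (horizontal axes), both in log2(FPKM + 1), with 1 point per accession coloured by its side of 0 on the first component. Asa3G03117.1 went with it (rho 0.68 over 84 accessions) and Asa8G05664.1 ran opposite (rho -0.66), whereas for AXR1-like Asa2G00503.1 and TOPLESS-related Asa4G00255.1 a relation passed the test on 1 side each.

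No relation with the other 10 study-named genes and the second AXR1-like identifier passed. For YUCCA-like Asa2G02184.1, whose relatives make auxin, r was 0.02 above 0 and 0.22 below. For the DELLA gene Asa2G00237.1, a repressor of gibberellin responses by its family, r was -0.02 and -0.01. The strongest of those that missed the threshold was the TGA4-like transcription factor gene Asa2G04763.1 above 0, with r = -0.42 (permutation adjusted p = 0.0555, n = 41). GA 20-oxidase Asa0G05638.1, of an enzyme family in gibberellin synthesis, had r = -0.39 above 0 (permutation adjusted p = 0.101) and -0.10 below. After median-ratio scaling these relations above 0 passed too, at r = -0.52 and -0.47 (permutation adjusted p = 0.00832 and 0.0185). For FT-like Asa6G06199.1, of the family of flowering and bulbing signals, r was 0.32 above 0 and 0.27 below, and above 0 it was -0.09 within the third block (n = 24).

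**Figure D5:**
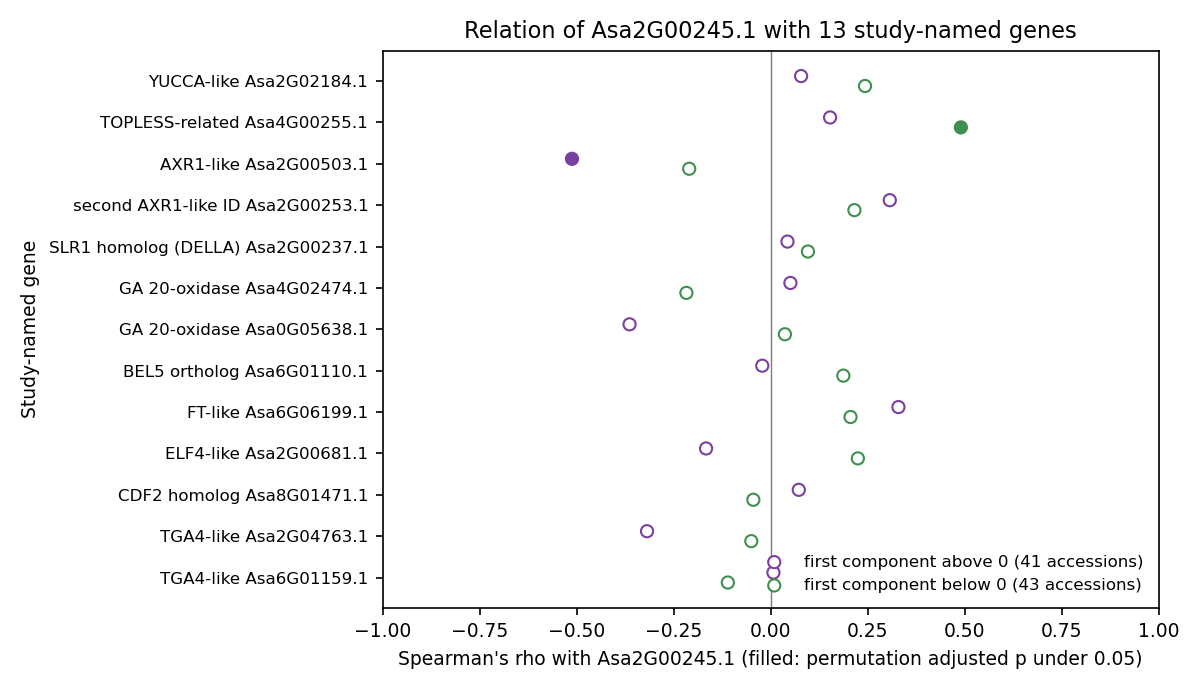
Spearman's rho with Asa2G00245.1 (horizontal axis) for the 13 other study-named genes (vertical axis) on each side of 0 of the first component, filled where the permutation adjusted p was under 0.05. Only AXR1-like Asa2G00503.1 above 0 (rho -0.51) and TOPLESS-related Asa4G00255.1 below 0 (rho 0.49) are filled.

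The genes most like Asa2G00245.1 were sought by Spearman's rho over all 84 accessions among the 29627 other genes with a mean of at least 1 FPKM. These are descriptions with no test, and both values of a point come from the same library and depth. The highest rho was 0.68 and the lowest -0.66, and 0.867% of the genes had a rho of at least 0.5 and 0.0844% (25 genes) a rho of -0.5 or less. None reached 0.7. The median rho of all compared genes was 0.07. After median-ratio scaling these shares were 0.459% and 0.145%, with a median rho of 0.00, and within the third block 0.408% and 0.0945%. Few genes thus varied closely with it, and the excess of genes in the same direction was smaller under both alternatives.

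Asa3G03117.1 was the most like it (rho 0.68 over 84 accessions, 0.69 and 0.68 above and below 0 on the first component). Its median was 8.65 FPKM in the 21 accessions with the lowest Asa2G00245.1, 18.9 and 22.2 FPKM in the next 2 sets of 21, and 39.9 FPKM in the 21 with the highest. In the accessions where Asa2G00245.1 was listed at 0 it had 5.27 FPKM (Xinjiang replicate 2) and 3.55 FPKM (Guizhou replicate 3). Asa6G06883.1 followed with a rho of 0.68, and its medians in these 4 sets were 30.3, 46, 50.1 and 65.2 FPKM. On the opposite side, Asa8G05664.1 had a rho of -0.66, with set medians of 17.6, 10.7, 9.34 and 7.03 FPKM, and its highest value of all, 37.7 FPKM, was in Xinjiang replicate 2. Asa7G01529.1 had a rho of -0.63, with set medians of 56.9, 35.5, 28.3 and 18.5 FPKM.

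The other 16 of the 10 most alike and the 10 most opposite genes had rho from 0.65 to 0.68 and from -0.59 to -0.54. Within the third block, which is part of the same accessions, the alike ones had 0.60 to 0.70 and the opposite ones -0.58 to -0.39 (n = 61). The files give these genes no name or function.

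The wider set was uneven between the sides. Of the genes with rho of at least 0.5, 94.6% reached 0.5 above 0 and 24.1% (62 genes) below 0, 50 genes reached it on both, and 93 within the third block. Of the 25 opposite genes 22 reached -0.5 above 0 and 9 below. Among all compared genes 3.87% reached 0.5 above 0, 0.894% below 0 and 0.408% within the third block. A rho of -0.5 or less was reached by 0.618% above 0 and 0.223% below. The unevenness was thus not particular to these genes, which were chosen by rho over both sides together. The alike genes had a median mean level of 28.2 FPKM against 9.48 FPKM for all compared genes, and their median rho with depth was -0.01 against -0.10. By identifier they lay on all chromosomes, with 42 on chromosome 8 (16.3% of them against 11.4% of the compared genes) and 31 on chromosome 2 (12.1% against 13.8%). None was among the 50 identifiers to either side of Asa2G00245.1.

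The number of alike genes differed widely among the study-named genes. YUCCA-like Asa2G02184.1 had a rho of at least 0.5 with 3421 genes, TOPLESS-related Asa4G00255.1 with 3673, FT-like Asa6G06199.1 with 1440 and the DELLA gene Asa2G00237.1 with 709, whereas GA 20-oxidase Asa4G02474.1 had 296, the CDF2 homolog Asa8G01471.1 73, AXR1-like Asa2G00503.1 46 and the TGA4-like gene Asa6G01159.1 none. By this count Asa2G00245.1 stood below 10 of the other 13 genes and above 3.

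Neighbours of Asa2G00245.1 on chromosome 2 had a median rho close to that of genes in general. Of the 10 identifiers before it and the 10 after it, 3 were listed at 0 in all accessions and 15 reached 1 FPKM in at least 4 accessions. Their rho with Asa2G00245.1 was positive for 12 and negative for 3, with a median of 0.09 beside 0.07 for all compared genes. The highest was that of Asa2G00244.1, the identifier just before it (rho 0.33, 26.8 ± 10 FPKM, SD, n = 84), and the lowest that of Asa2G00250.1 (rho -0.33, 4.21 ± 3.32 FPKM). The middle 90% of all compared genes had rho between -0.22 and 0.36, and the highest neighbour lay inside that range and the lowest outside it. The DELLA gene Asa2G00237.1 also lies in this window, 8 identifiers before, with a rho of 0.05.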

How the data were processed

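Per the labels, 3 enlarging bulbs of each accession were collected. The study gives other numbers of plants and accessions, which could not be reconciled here. The authors aligned clean reads to the garlic genome with HISAT2 (2.2.1.0 in the submitters' processing notes) and deposited FPKM per gene. Not given in the sources used here are the counting program, the scaling total and the use of strand. Library sums of FPKM ran from 1095910 to 1339390, so levels were also rescaled in alternatives.

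Values were transformed to log2(FPKM + 1), which understates changes of low genes. Tests covered genes that reached 1 FPKM in 4 or more fitted accessions and used limma 3.58.1 (R 4.3.3; intensity trend, two-sided, Benjamini-Hochberg, threshold 0.05), over all 84 accessions for country, the 43 of the 6 sites, and 36 for South against plain. The study tested its genetic groups by an analysis of variance, and no covariate is named there. Single-gene tests were permutation tests, exact below 10 accessions and with 100000 resamples otherwise. P-values measure the spread among accessions, treated as independent. On simulated data with 200 changed genes, the fit of other countries against China recovered 80% of 2-fold changes of FPKM + 1 among 34749 genes. That of Canada recovered 42% among 33652 and that of South against plain 71% among 33034. Only genes with a mean log2(FPKM + 1) above 2 were changed. Asa2G00245.1 had means of 1.35 in China and 1.24 in other countries, so these shares do not apply to it.

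Relative depth came from the commonest ratio of low FPKM values between libraries. Python 3.11.15 was used with SciPy 1.17.1, pandas 2.3.3, NumPy 2.4.6 and, for plots, Matplotlib 3.10.9. Genes named were Asa2G00245.1, 13 other genes from the study, neighbouring identifiers, and the genes most and least alike by rho, of which 2 each way are named. Members and lists were chosen with earlier results of these data known. The genetic groups of the study are not in the labels and were not used, and no sequence was analysed. Alternatives were another pseudocount, untransformed values, no filter, 2 scalings, a block covariate, accession weights, the third block alone and leaving out accessions.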

Additional observations from a re-analysis of the deposited data

Results flagged for a closer look

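Xinjiang replicate 4 stood far from the other Xinjiang accessions, with 6.59 FPKM of Asa2G00245.1 against 2.92 FPKM in the next. Its gap was 0.557 of the range of the 9 accessions, beyond the limit for a group of this size. The 6 site groups of 4 to 9 accessions (the accessions from China without a province included) were examined at both ends in FPKM. Chance exceeds the limit in about 1 in 20 groups where values are normally distributed. FPKM of the gene was skewed, with a skewness of 0.997 against -0.0639 on the log2(FPKM + 1) scale. On that scale the Xinjiang values were 2.92 and 1.97 at the top and 0 at the bottom, and the limit was not applied there. Hebei replicate 3, at 4.63 FPKM, had a gap of 0.777 of the range of 4 accessions, which did not exceed the limit for that size.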

How the results depend on the processing

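Asa2G00245.1 passed the limma threshold under none of the 193 refits (lowest adjusted p = 0.503), but its small differences often changed sign. Other countries minus China became 0.0055 with quantile normalization, 0.077 with the column block as covariate and 0.033 in the third block. Shanxi minus Shandong became 0.094 untransformed (in FPKM), 0.11 with quantile normalization, 0.19 with the block, 0.069 with accession weights and 0.32 in the third block. Canada minus Shandong became 0.032 with median-ratio scaling, 0.22 with quantile normalization and 0.38 with the block. Hebei minus Shandong became 0.10 untransformed, 0.042 with the block and 0.030 in the third block, and South minus plain 0.11 untransformed and 0.015 with median-ratio scaling. The relation with depth became r = 0.027 with median-ratio scaling. Without single accessions the changes ran from -0.18 to -0.037 (other countries), -0.0073 to 0.36 (Xinjiang), -0.17 to 0.22 (Shanxi), -0.33 to 0.14 (Canada), -0.25 to 0.10 (Henan), -0.49 to 0.15 (Hebei) and -0.15 to 0.091 (South).

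The percentage of tested genes called moved more. For other countries 3.67% became 1.97% untransformed, 12.9% with accession weights and 7.8% in the third block, and 1.48% to 5.78% without single accessions. For Canada 1.35% became 0.817% untransformed, 0.808% with quantile normalization, 0.127% with the block and 13.9% with weights, and 0.328% to 3.65% without single accessions. Over the 6 sites 0.0442% became 0.0147% with quantile normalization, 0% with the block (3273 genes at an unadjusted limma p under 0.05) and 36.7% with weights. From 0%, weights gave 1.76% (Xinjiang), 34.3% (Henan), 0.0354% (Hebei) and 34.8% (South), no filter gave 0.00435% (Henan), and median-ratio scaling and the third block gave 0.003% and 0.00306% (South). Without single accessions the lowest was 0% and the highest 0% (Xinjiang), 0.00296% (Shanxi), 0.0118% (Henan), 0.0059% (Hebei) and 0.003% (South). Of the called genes 33.4% were higher in other countries, but 72.4% untransformed, 51.1% with quantile normalization and 22.7% with a pseudocount of 0.1, and 25.5% in Canada, but 73.6% untransformed and 78.7% with median-ratio scaling. The cause was not tested.

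In alternatives chosen after seeing the data, the lowest adjusted permutation p was 0.892 or above, and the 4 relations that passed became 2 untransformed (both values of r were lost) and 8 with median-ratio scaling. Of the 10 most alike and 10 most opposite genes, 4 and 4 were shared with those of the third block, 4 and 4 with those above 0 on the first component, and 3 and 0 with those below 0. Few reads limit the 7 accessions under 10 reads. Each accession had 1 library, so there were no pairs to analyse.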
